A study of Mus musculus with 16 samples.

Results

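The genes described here are 46 splicing regulators and neuronal RNA-binding proteins of the mouse dorsal hippocampus: every protein-coding gene of the count table whose GENCODE symbol begins with Hnrnp, or with Srsf, Rbfox, Nova, Celf or Elavl followed by a digit. They are 46 of 35328 genes in the table and comprise 20 Hnrnp, 11 Srsf, 6 Celf, 4 Elavl, 3 Rbfox and 2 Nova genes. All 46 passed the filter on low counts, as did 17830 genes in all. RNA-Seq was performed on 16 male C57Bl6/J mice in 4 groups of 4, and the labels give no genotype beyond the strain. Home cage water mice rested and drank water, and home cage caffeine mice rested and drank caffeine at 0.3 g/L. Learning water and learning caffeine mice drank the same solutions and were trained for 3 days in the Morris water maze, a spatial task that depends on the hippocampus, with tissue taken 1 hour after the last session. Caffeine was given for 2 weeks from 8 to 9 weeks of age. The home cage mice did not swim, so learning cannot be told apart from swimming, exposure to the maze water and its temperature, handling and stress in these groups. The deposited values are read counts per gene, between 23078094 and 49949281 per mouse. A level is given as CPM, which is the count scaled to a common library total and is not corrected for gene length, and a change as a log2 fold change from 1 model over all 16 mice. The word called stands for an adjusted p below 0.1 (edgeR's quasi-likelihood test, Benjamini-Hochberg adjustment over 17830 genes).

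Splicing joins exons of a pre-mRNA, and these proteins bind the RNA to decide which exons are kept. SR proteins, encoded by the Srsf genes, mostly bind exon sequences and favour inclusion, and their activity is set by phosphorylation by the CLK and SRPK kinases. The hnRNP proteins coat nascent RNA and often oppose inclusion. Rbfox and Nova proteins act in position-dependent ways on neuronal exons, Celf proteins bind GU-rich sequences, and the neuronal Elavl (Hu) proteins bind U-rich and AU-rich sequences and stabilize mRNAs of neurons. Many Srsf and Hnrnp genes also regulate their own mRNA through alternative exons that lead to decay. Counts per gene do not separate these isoforms, so a level here is the sum over all transcripts of a gene.

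The tissue label was checked first. The neuronal markers Snap25, Syt1, Slc17a7, Gad1 and Gad2 were present in every mouse, together with Rbfox3 itself, at 5604 to 6748 CPM in sum, and no marker of the 9 cell types examined was at 0 in any mouse. In the average learning response, none of the 6 neuronal and none of the 3 dentate granule cell markers was called, whereas all 5 choroid plexus markers, 2 of 5 microglial, and 1 each of the pyramidal, astrocyte, endothelial and thalamus markers were lower. The median log2 fold change was 0.21 for the dentate granule, -0.29 for the pyramidal and 0.041 for the neuronal markers. None of the 6 oligodendrocyte markers was called, but their median log2 fold change for learning under caffeine was -0.41, and their summed level ranged from 5195 to 8805 CPM in home cage caffeine and 4897 to 6860 CPM in learning caffeine mice (5113 to 7316 and 5043 to 11735 CPM in home cage water and learning water mice). Summed choroid plexus markers ranged from 295 to 2308 CPM in home cage water, 184 to 488 in home cage caffeine, 155 to 419 in learning water and 109 to 196 CPM in learning caffeine mice. Mitochondrial transcripts took 3.46% to 4.49% of counts in home cage and 3.23% to 3.59% in learning mice, and home cage caffeine mouse 17 had the highest share. The part of these differences in the results on the splicing regulators was not tested. In bulk tissue, fewer cells of a type and less RNA per cell cannot be told apart.

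Measured per length, Rbfox1 was the most abundant of the 46 genes. Rbfox1, a splicing factor of mature neurons, stood at a mean of 115.5 CPM per kb of exon over the 16 mice (lowest 93.1, highest 125.5). It was followed by Hnrnpa2b1, a nuclear RNA-binding protein also known for mRNA transport in dendrites, at 89.5 CPM per kb. Srsf5, the leading Srsf gene, reached 58.7, Hnrnpa0 54.1 and Celf4, the leading Celf gene, 53.2 CPM per kb. Rbfox3, the gene of the neuronal antigen NeuN, stood at 51.0 and Rbfox2 at 36.6 CPM per kb. At the lower end were Nova1 at 5.14, Hnrnpr at 4.21 and Hnrnpf at 2.23 CPM per kb. In the order of levels, 41 of the 45 neighbouring pairs had overlapping ranges over the 16 mice. The 4 pairs without overlap were Hnrnpa2b1 over Srsf5, Hnrnpl over Srsf11, Elavl1 over Srsf12 and Hnrnpr over Hnrnpf.

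The exon length used is the union of all annotated transcripts, which lowers the per-length level of genes with long rare isoforms such as Celf2 (25884 bases). Hnrnpr has a union of 22199 bases and a mean of 93.4 CPM, so its place near the lower end rests on this length. Sequence shared with other genes also bears on the levels, because only uniquely aligned reads were counted. Of the 46 genes, 13 shared at least 10% of their 50-base exon sequences with another gene. The share was 61.9% in Hnrnpf, with Gm6430 as the main sharing gene, 28.2% in Hnrnpa1 and 27.1% in Hnrnpa3. It was 39.5% in Srsf4 and 30.8% in Nova2, whose main sharing genes overlap them on the opposite strand. Reads from such an overlap can still align uniquely, and there the use of strand in counting matters. The levels of these 5 genes are uncertain. Among the genes called in any comparison, Srsf10 shared 10.3% and Srsf3 10%, and the others 3.08% or less. For 21 of the 46, an exon overlaps another annotated gene, among them Nova2 (31.7% of its exon bases opposite Gm26821) and Srsf4 (43% opposite Gm12992). Hnrnpab (29.1% opposite Phykpl) and Srsf2 (25.3% opposite Mettl23 and Mfsd11) also overlap other genes in this way. Whether the counting used strand is not given in the sources used here.

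**Figure D1:**
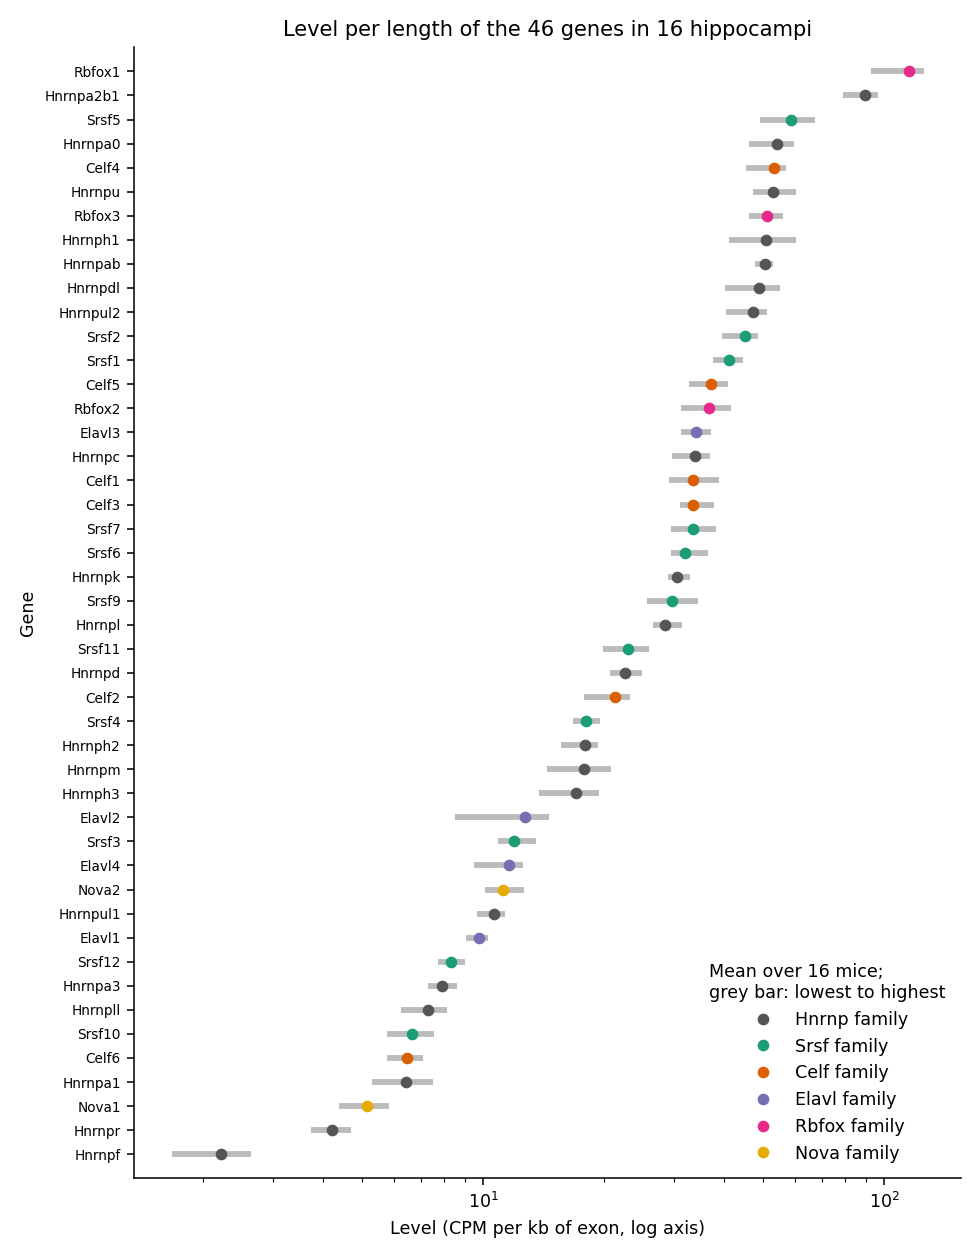
Level of each of the 46 genes as CPM per kb of exon (log axis); points are means over 16 mice, coloured by family, and grey bars run from the lowest to the highest mouse. Rbfox1 at 115.5 CPM per kb and Hnrnpa2b1 at 89.5 stand at the top, and Hnrnpf at 2.23 is the lowest.

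In each of the 16 mice, 1 gene supplied the largest part of the per-length level of its family. Rbfox1 supplied 56.5 ± 1.22% (SD, n = 4) of the summed per-length Rbfox level in home cage water, 56.4 ± 1.51% in home cage caffeine, 57.8 ± 1.4% in learning water and 56.6 ± 2.00% in learning caffeine mice. Among the Nova genes, Nova2 supplied 66.3% to 72.3% in the 16 mice and Nova1 the rest. This split is uncertain, because the level of Nova2 is. Elavl3, one of the neuronal Hu genes, supplied 47.2% to 53.2% of the Elavl level, while Elavl1, the ubiquitous member HuR, supplied 13.6% to 15.6%. Celf4 supplied 25.9% to 31.7% of the per-length Celf level. Without correction for length, Celf2 had the higher mean over the 16 mice (554 CPM, against 456 CPM for Celf4). The within-group coefficient of variation had a median of 6.11% over the 45 members with at least 10 CPM, against 7.11% over the 10122 genes at that level, and ran from 3.19% in Elavl1 to 11.3% in Elavl2.

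After training, a minority of these genes changed, each by a small amount. In the average learning response, which is the mean of the responses under water and under caffeine, 8 of the 46 were called (17.4%), against 14.5% of all genes tested. The 5 called higher were Srsf7, Srsf10, Srsf3, Rbfox2 and Hnrnph1 (10.9% of the members, against 7.81% of all genes), and the 3 called lower were Hnrnpdl, Hnrnpa0 and Nova1 (6.52%, against 6.71%). These shares are near the background. The changes ran from -0.20 to 0.17 on the log2 scale among the called genes. Over all 46, 32 had positive and 14 negative log2 fold changes, and the median was 0.027, against -0.013 over all genes tested.

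The Srsf genes gave 3 of the 5 genes called higher, which is 27.3% of the 11, against 7.81% of all genes. None of the 11 was called lower, against 6.71% of all genes. Srsf7 encodes an SR protein that takes part in splicing and in mRNA export (ENSMUSG00000024097, chromosome 17 from 80200080 to 80207307, minus strand, GRCm38). Its levels were 106, 109.8, 115 and 122 CPM in the 4 home cage water mice and 117, 122, 126 and 126 CPM in the learning water mice. Under caffeine, the levels were 104, 109, 111 and 114 CPM in the home cage and 121, 126, 128 and 135 CPM after learning. The groups overlapped under water and did not overlap under caffeine, and 5 of the 8 learning mice exceeded every home cage mouse. Srsf7 was higher by 0.17 ± 0.037 (SE) on average (adjusted p = 0.00966, edgeR) and by 0.22 ± 0.052 (SE) under caffeine (adjusted p = 0.0335). The response under water was 0.12 ± 0.052 (SE), with an adjusted p of 0.376, and was not called. The call on the average held in all 16 fits that left out 1 mouse, and the value did not move with a correction for transcript length and GC content (0.17, adjusted p = 0.0037).

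Srsf3, another SR protein with roles in splicing, export and polyadenylation (ENSMUSG00000071172, chromosome 17 from 29032628 to 29043373, plus strand), measured 87.5, 90, 92.6 and 97.1 CPM in home cage water and 88.8, 96.7, 98.4 and 99.9 CPM in learning water mice. In caffeine mice it measured 86.2, 86.6, 88.3 and 90.6 CPM in the home cage and 94.0, 96.4, 106 and 107 CPM after learning. The water groups overlapped, whereas under caffeine every learning mouse was above every home cage mouse. Srsf3 was higher by 0.13 ± 0.038 (SE) on average (adjusted p = 0.0447) and by 0.20 ± 0.054 (SE) under caffeine (adjusted p = 0.0626, edgeR). The average fell to 0.077 with an adjusted p of 0.28 after the length and GC correction, which ends the call, and the call under caffeine was lost without home cage caffeine mouse 2, 9 or 17 or learning caffeine mouse 22 or 40 (0.18 to 0.23 over all 16 fits, adjusted p up to 0.14).

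Srsf10, an SR protein that acts as a repressor when dephosphorylated (ENSMUSG00000028676, chromosome 4 from 135855747 to 135869908, plus strand), measured 40.3, 43.1, 43.8 and 48.0 CPM in home cage water and 45.96, 46.3, 49.3 and 52.2 CPM in learning water mice. Under caffeine the values were 41.1, 41.3, 46.7 and 46.8 CPM in the home cage and 47.2, 50.4, 51.0 and 52.9 CPM after learning, without overlap. Srsf10 was called on average, at 0.17 ± 0.046 (SE) with an adjusted p of 0.0324 (edgeR), in all 16 fits that left out 1 mouse. In neither treatment alone was it called (water 0.14, adjusted p = 0.403, and caffeine 0.20, adjusted p = 0.117). Over the 11 Srsf genes, 9 had positive and 2 negative average log2 fold changes. The median was 0.046, against 0.027 over the 46 members and -0.013 over all genes tested.

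**Figure D2:**
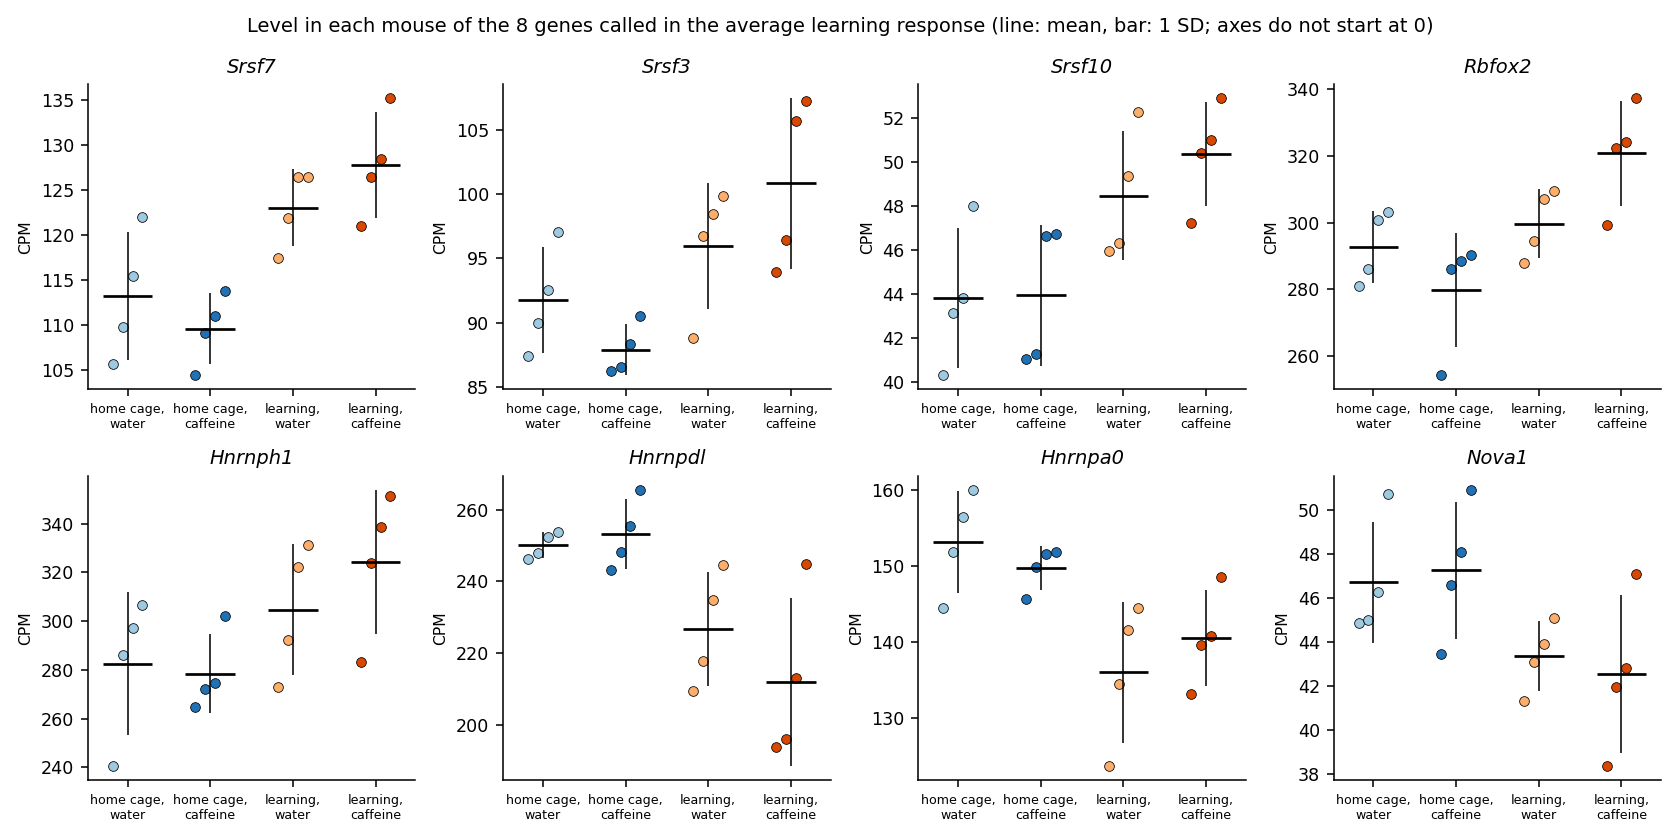
CPM in each mouse for the 8 genes called in the average learning response; each point is 1 mouse, lines are group means and bars 1 SD (n = 4), and the axes do not start at 0. Srsf7, Srsf3, Srsf10, Rbfox2 and Hnrnph1 lie higher in the learning groups, and Hnrnpdl, Hnrnpa0 and Nova1 lie lower.

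The sequence upstream of the start is shown for 2 genes called higher and 1 called lower, picked from the called genes and not by a rule. In each, the RefSeq start (GRCm38.p6) lies at or near the edge of the GENCODE gene. The other called genes are not shown. Each runs 5′ to 3′ on the gene's strand, ends just before the gene and is in lower case, with the cyclic AMP response element core TGACG, or its reverse complement CGTCA, in capitals. This core is the letters to which CREB, a transcription factor active in learning, is known to bind.
Srsf7 (chr17:80207308-80207555, minus strand): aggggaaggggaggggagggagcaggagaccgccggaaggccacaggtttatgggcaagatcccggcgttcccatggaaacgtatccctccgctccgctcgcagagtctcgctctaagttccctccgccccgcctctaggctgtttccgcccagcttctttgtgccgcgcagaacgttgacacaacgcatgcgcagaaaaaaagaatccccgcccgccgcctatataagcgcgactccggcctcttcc
Srsf3 (chr17:29032410-29032627, plus strand): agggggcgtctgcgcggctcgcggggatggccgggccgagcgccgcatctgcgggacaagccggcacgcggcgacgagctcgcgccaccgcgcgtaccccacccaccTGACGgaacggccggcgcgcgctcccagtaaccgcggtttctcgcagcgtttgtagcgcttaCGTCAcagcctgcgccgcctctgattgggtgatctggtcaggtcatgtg
Hnrnpa0 (chr13:58128557-58128806, minus strand): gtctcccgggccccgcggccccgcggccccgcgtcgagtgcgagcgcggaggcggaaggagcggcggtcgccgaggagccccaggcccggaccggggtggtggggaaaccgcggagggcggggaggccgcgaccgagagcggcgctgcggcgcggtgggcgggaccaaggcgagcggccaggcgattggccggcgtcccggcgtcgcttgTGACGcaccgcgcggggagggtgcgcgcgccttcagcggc
Srsf3 held TGACG on both strands, at 143 to 139 and 81 to 77 bases before the start, and Hnrnpa0 held it once, 40 to 36 bases before the start. Positions are counted from the RefSeq start, which for Srsf3 lies 32 bases past the end of the printed sequence. Srsf7 held none in this window. Of the 46 genes, 42 had an entry, and 17 of these (40.5%) held TGACG on either strand within 250 bases upstream, against 17.9% of 27025 promoters of the same length. These 42 windows were also richer in G and C, with a median of 62.6% against 52% and 21 against 6 CG pairs. The full palindrome TGACGTCA, which contains the core, stood in 1 of the 42 (Celf6) and in 1.62% of all promoters. Among the other motifs searched, AP-1 (TGAGTCA) stood in 2.38% of the 42 against 4.43% of all promoters, and EGR (GCGTGGGCG) in 0% against 0.54%. The E-box CACGTG stood in 4.76% against 6.05%, and CCAAT in 42.9% against 34.5%. Rbfox2 had no entry. A match of letters is not a measured site, and no binding was measured in these samples.

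Rbfox2 was the one Rbfox gene called. Rbfox2 binds GCAUG in introns next to regulated exons and is expressed in neurons and other cells (ENSMUSG00000033565, chromosome 15 from 77078990 to 77307004, minus strand). It measured 281, 286, 301 and 303 CPM in home cage water and 288, 294, 307 and 309.6 CPM in learning water mice, which overlapped. In caffeine mice it measured 254, 286, 288 and 290.3 CPM in the home cage and 299, 322, 324 and 337 CPM after learning, without overlap. The lowest value was that of mouse 17. Rbfox2 was higher by 0.20 ± 0.053 (SE) under caffeine (adjusted p = 0.0572, edgeR) and by 0.12 ± 0.037 (SE) on average (adjusted p = 0.0646). Without mouse 17 the value under caffeine was 0.16, with an adjusted p of 0.13, and the average was 0.098 (adjusted p = 0.092). Leaving out learning caffeine mouse 22 or 30 also ended the call under caffeine, and leaving out home cage water mouse 20, learning water mouse 33 or 36 or learning caffeine mouse 30 ended that on the average (adjusted p up to 0.11). The length and GC correction also ended the call on the average (0.080, adjusted p = 0.15).

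The other Rbfox genes were not called. Rbfox1 ranged from 409.5 to 552 CPM in the 8 home cage mice and from 485 to 546 CPM in the 8 learning mice, with an average learning response of 0.074 ± 0.053 (SE). Rbfox3 ranged from 269 to 325 CPM in the home cage and from 270.1 to 310.1 CPM after learning, with a response of -0.029 ± 0.041 (SE). The learning ranges of both lay within the home cage ranges.

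Of the 20 Hnrnp genes, 1 was called higher and 2 lower on average (15%, against 14.5% of all genes tested). Hnrnpdl, a paralogue of the mRNA decay factor Hnrnpd (ENSMUSG00000029328, chromosome 5 from 100033577 to 100039664, minus strand), had the largest fall among the members called. It measured 246, 248, 252 and 254 CPM in home cage water and 209.5, 218, 235 and 245 CPM in learning water mice, and the groups did not overlap. With caffeine it measured 243, 248, 256 and 266 CPM in the home cage and 194, 196, 213 and 245 CPM after learning, with 1 learning mouse inside the home cage range. The mean log2 fold change was -0.20 ± 0.047 (SE) on average (adjusted p = 0.0175, edgeR), -0.26 ± 0.067 (SE) under caffeine (adjusted p = 0.0509) and -0.14 ± 0.067 (SE) under water, which was not called (adjusted p = 0.422). Without mouse 17 the value under caffeine was -0.23, with an adjusted p of 0.13, and the call was also lost without home cage caffeine mouse 2 or learning caffeine mouse 22, 27 or 30 (adjusted p up to 0.19), while the average stayed called in all 16 fits that left out 1 mouse and after the length and GC correction (-0.22, adjusted p = 0.0084).

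Hnrnpa0 binds AU-rich elements of mRNAs (ENSMUSG00000007836, chromosome 13 from 58125879 to 58128556, minus strand). It measured 144, 152, 156 and 160.0 CPM in home cage water and 124, 134, 142 and 144 CPM in learning water mice. Under caffeine it measured 146, 149.8, 152 and 152 CPM in the home cage and 133, 139.6, 141 and 148 CPM after learning. The groups overlapped under caffeine and met at 144 CPM under water, and 6 of 8 learning mice were below every home cage mouse. The average was -0.13 ± 0.038 (SE) (adjusted p = 0.0403, edgeR). It was not called after the length and GC correction (-0.078, adjusted p = 0.27) or when every gene with a single count was kept (-0.12, adjusted p = 0.13). It was called in 13 of 16 fits that left out 1 mouse, the exceptions being home cage water mice 6 and 11 and learning caffeine mouse 22 (adjusted p up to 0.13).

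Hnrnph1, a G-rich sequence binder (ENSMUSG00000007850, chromosome 11 from 50376990 to 50386528, plus strand), measured 240.3, 286, 297 and 307 CPM in home cage water and 273, 292, 322 and 331 CPM in learning water mice. In caffeine mice it measured 265, 272, 275 and 302 CPM in the home cage and 283, 324, 339 and 352 CPM after learning. The groups overlapped in both treatments, and home cage water mouse 6 had the lowest value. The average was 0.16 ± 0.058 (SE) (adjusted p = 0.0892, edgeR), and the call held in 6 of 16 fits that left out 1 mouse (adjusted p 0.041 to 0.16 over the 16) and was lost with the length and GC correction (0.11, adjusted p = 0.14). Of the other 17 Hnrnp genes, none was called in any comparison.

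Nova1, whose protein binds YCAY clusters and regulates exons of synaptic genes (ENSMUSG00000021047, chromosome 12 from 46694517 to 46818929, minus strand), measured 44.9, 45.0, 46.3 and 50.7 CPM in home cage water and 41.3, 43.1, 43.9 and 45.1 CPM in learning water mice. With caffeine it measured 43.5, 46.6, 48.1 and 50.9 CPM in the home cage and 38.4, 42.0, 42.8 and 47.1 CPM after learning. The groups overlapped in both treatments. Nova1 was lower on average, at -0.13 ± 0.046 (SE) (adjusted p = 0.0911, edgeR), a call kept in 2 of 16 fits that left out 1 mouse (home cage caffeine mouse 9 and learning caffeine mouse 40). With the length and GC correction it was -0.20 (adjusted p = 0.039). Nova2, its paralogue, ranged from 90.3 to 105.7 CPM in the home cage and from 84.5 to 101.1 CPM after learning, with a response of -0.068 ± 0.043 (SE) that was not called (adjusted p = 0.333).

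The neuronal Elavl and Celf genes were not called. Elavl2, which stabilizes neuronal mRNAs, had the largest positive average response of the 46 genes, 0.20 ± 0.078 (SE), with an adjusted p of 0.119 (edgeR). It measured 70.9, 96.3, 102 and 119 CPM in home cage caffeine mice, the lowest being home cage caffeine mouse 17, and 107, 108, 114 and 116 CPM in learning caffeine mice. In water mice it measured 90.3, 91.5, 101 and 114 CPM in the home cage and 108, 112, 116 and 121 CPM after learning. The 8 home cage mice spanned 70.9 to 119 CPM and the 8 learning mice 107 to 121 CPM. Elavl3 had a response of 0.085 ± 0.034 (SE) (adjusted p = 0.126), with 5 of 8 learning mice above every home cage mouse, and Elavl4 one of 0.02 ± 0.054 (SE). Among the neuronal Celf genes, Celf4 had a response of 0.10 ± 0.045 (SE) (adjusted p = 0.157), Celf3 -0.065 ± 0.042 (SE), Celf5 -0.068 ± 0.044 (SE) and Celf6 0.034 ± 0.052 (SE). The 22 members not named by rule had average responses between -0.084 and 0.093, with no adjusted p below 0.12.

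A correction for transcript length and GC content changed which members were called. It called 7 of the 46, 2 higher and 5 lower, where the uncorrected counts gave 5 higher and 3 lower. Over all 17830 genes the corrected fit called 12.2%, 1245 higher and 936 lower. Srsf7, Srsf10, Hnrnpdl and Nova1 were called both ways. Hnrnpr (-0.13, adjusted p = 0.027), Hnrnpd (-0.097, adjusted p = 0.080) and Hnrnpl (-0.094, adjusted p = 0.081) were called with the correction and not without it.

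Split by treatment, learning gave more calls among these genes under caffeine than under water, as it did over all genes. Under water, 0 of 46 were called, against 0.970% of all genes tested (edgeR), and DESeq2's Wald test also called 0 of the 46. At an unadjusted p under 0.05 there were 5 members (10.9%, against 11.8% of all genes): Srsf7, Srsf10, Hnrnpa0, Hnrnpd and Hnrnpdl. Of these, Hnrnpa0 (-0.17 ± 0.053 (SE)), Srsf7 and Hnrnpd, an AU-rich element binder also known as AUF1 (-0.11 ± 0.048 (SE)), had adjusted p-values of 0.187, 0.376 and 0.355 (edgeR). Hnrnpd measured 171, 173, 173 and 184 CPM in home cage water and 152, 163, 164 and 168 CPM in learning water mice. With Hnrnpdl, it was 1 of 2 members whose water groups did not overlap (4.35%, against 6.99% of all genes).

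Under caffeine, 4 of 46 were called (8.70%, against 5.28% of all genes): Srsf7, Srsf3 and Rbfox2 higher (6.52%, against 3.16%) and Hnrnpdl lower (2.17%, against 2.13%). The groups did not overlap for 5 members (10.9%, against 10.9% of all genes), namely Srsf7, Srsf3, Srsf10, Rbfox2 and Elavl1. All 11 Srsf genes had positive log2 fold changes under caffeine, with a median of 0.084, and 6 of 11 under water, with a median of 0.015. Over all 46 members, 35 were positive under caffeine (median 0.042) and 22 under water (median -0.0014). The medians over all genes tested were -0.012 and -0.0055. The difference between the 2 responses was called for 0 of the 11 Srsf genes, and 0 had an unadjusted p under 0.05 (edgeR). Of the 4 calls, 1 (Srsf7) remained without mouse 17, where the background was 2.25%, and 1 (Srsf7) when only the 8 caffeine libraries were fitted, where the background was 3.58%.

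**Figure D3:**
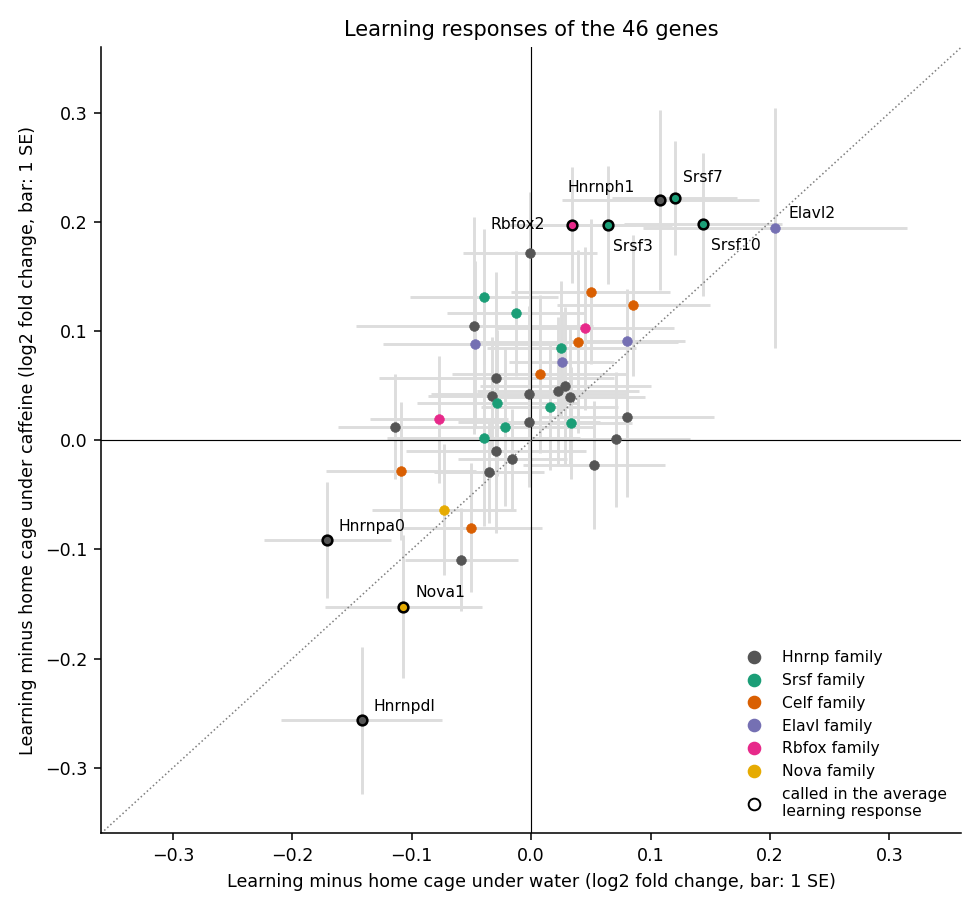
Learning response (learning minus home cage, log2 fold change) in water mice (horizontal) and in caffeine mice (vertical) for the 46 genes, with bars of 1 SE, coloured by family; black outlines mark the 8 genes called on average and the dotted line marks equal responses. Hnrnph1, Srsf7, Srsf3, Srsf10 and Rbfox2 lie at the upper right, Hnrnpdl, Nova1 and Hnrnpa0 at the lower left, and Elavl2 lies farthest right.

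The difference between the learning responses was tested directly, and no member was called. Across all 17830 genes, 0% were called, and 3.63% had an unadjusted p under 0.05, against 2 of 46 members (4.35%). These were Rbfox2 (0.16 ± 0.075 (SE)) and Hnrnpll, a regulator of exons in lymphocytes (0.17 ± 0.079 (SE)), followed by Srsf2 (0.17 ± 0.088 (SE)), all with an adjusted p of 1 (edgeR). Hnrnpll measured 81.9, 83.7, 86.7 and 88.0 CPM in home cage water, 78.9, 86.5, 86.5 and 87.9 CPM in learning water, 73.1, 80.6, 80.6 and 86.4 CPM in home cage caffeine and 84.4, 89.3, 92.4 and 94.9 CPM in learning caffeine mice. Srsf2, an SR protein of exon definition, measured 132, 134, 136 and 139 CPM in home cage water and 117, 130.2, 136 and 143 CPM in learning water mice. In caffeine mice it measured 117, 123, 128 and 139.7 CPM in the home cage and 132, 139, 141 and 143 CPM after learning. The 2 responses share no mice, and the larger number of calls under caffeine is not shown to be a difference for any single member.

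Caffeine itself moved none of the 46 genes past the threshold. In the home cage, after learning and on average, 0 members were called, against 0% of all genes in each (edgeR), and DESeq2's Wald test also called 0 of the 46. At an unadjusted p under 0.05 there was 1 member in the home cage (Hnrnpf, 2.17%, against 3.57% of all genes), 1 after learning (Hnrnph3, 2.17%, against 3.93%) and 2 on average (4.35%, against 4.07%). The 95% interval of the average caffeine response lay within 1.2-fold in either direction (0.263 on the log2 scale) for 44 of the 46 genes and within 1.5-fold for all 46. The 2 genes whose intervals reached past 1.2-fold on average were Hnrnpf and Hnrnph3, both binders of G-rich RNA. Their estimates lay within it. In the separate comparisons, the interval lay within 1.2-fold for 43 genes in the home cage and 41 after learning.

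Hnrnpf measured 6.79, 6.88, 7.72 and 8.02 CPM in home cage water and 5.11, 6.04, 6.16 and 7.15 CPM in home cage caffeine mice, the lowest being mouse 17. After learning it measured 6.77, 6.89, 7.10 and 7.65 CPM under water and 6.16, 6.47, 6.69 and 6.90 CPM under caffeine. Groups overlapped in both conditions, and the average caffeine response was -0.19 ± 0.07 (SE) (95% interval -0.34 to -0.045, adjusted p = 0.986, edgeR). Hnrnph3 measured 43.6, 50.0, 50.9 and 57.8 CPM in home cage water and 52.0, 53.4, 57.5 and 61.2 CPM in home cage caffeine mice. After learning it measured 45.9, 47.9, 52.1 and 56.2 CPM under water and 54.8, 55.9, 58.8 and 61.4 CPM under caffeine, with an average caffeine response of 0.17 ± 0.057 (SE) (95% interval 0.048 to 0.29, adjusted p = 0.986, edgeR).

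The remaining genes of smallest p had smaller differences, and none was called. In the home cage, Hnrnpd gave -0.10 ± 0.048 (SE) (adjusted p = 0.997, edgeR) and Hnrnpc, a U-tract binder, 0.11 ± 0.059 (SE) (adjusted p = 0.997, edgeR). Hnrnpc measured 128, 139.8, 145 and 147 CPM with water and 140.5, 147, 158 and 159 CPM with caffeine in the home cage, with overlap. After learning, Celf5 gave 0.13 ± 0.063 (SE) (adjusted p = 0.999, edgeR) and Rbfox2 0.10 ± 0.053 (SE) (adjusted p = 0.999, edgeR). Celf5 measured 218, 218, 241 and 244 CPM under water and 234, 244, 262 and 266 CPM under caffeine, again with overlap. Srsf7, Srsf3, Srsf10, Hnrnpdl, Hnrnpa0 and Nova1 had average caffeine responses between -0.04 and 0.029. The median over the 46 genes was 0.0056 on average, -0.019 in the home cage and 0.033 after learning, against -0.0041, -0.0031 and -0.0043 over all genes tested.

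**Figure D4:**
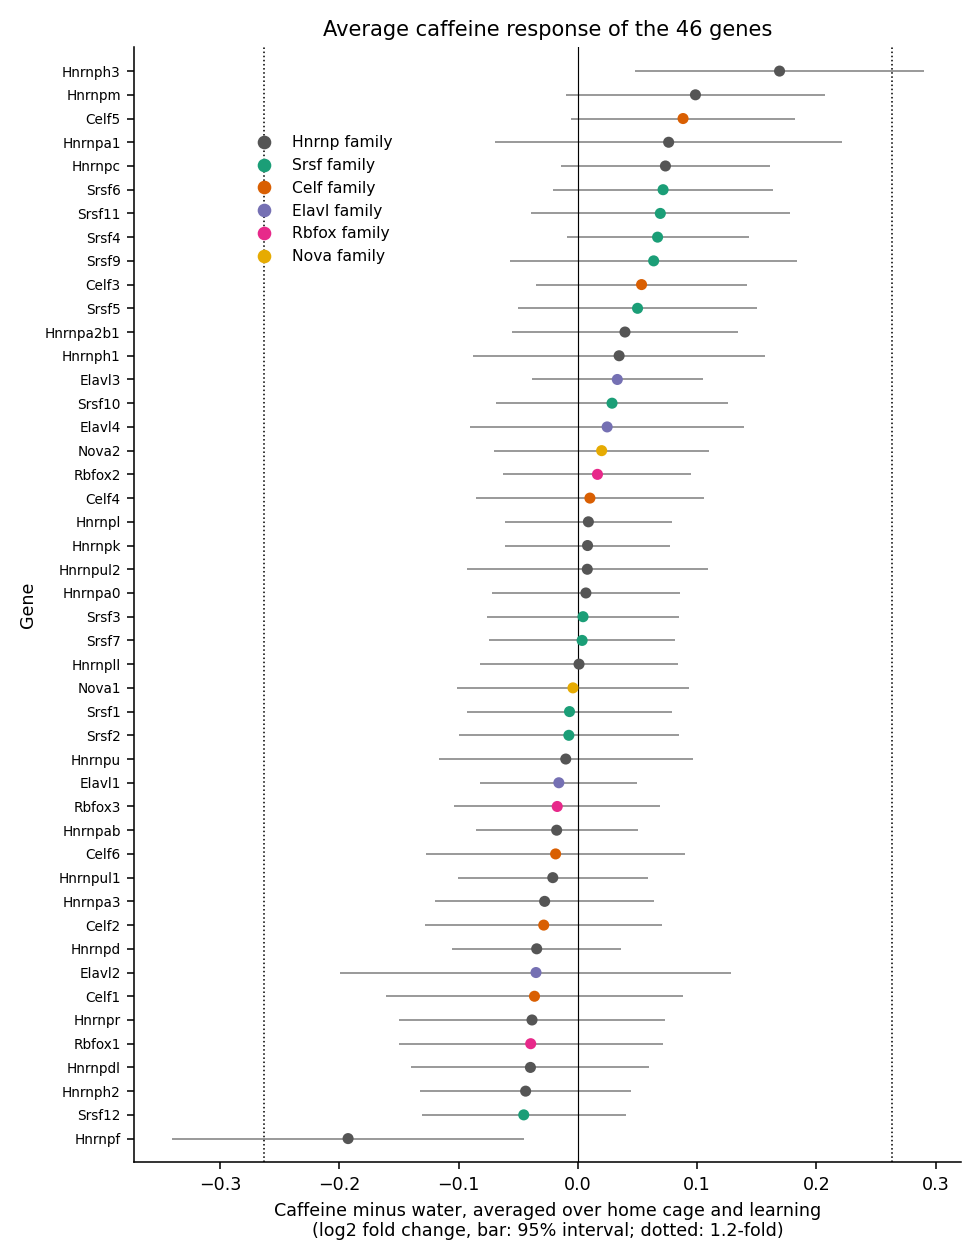
Average caffeine response (caffeine minus water, log2 fold change) of the 46 genes with 95% intervals, coloured by family; dotted lines mark 1.2-fold. The intervals of 44 genes stay between the lines, that of Hnrnph3 passes the upper and that of Hnrnpf the lower line, and no gene was called.

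Genes that act with these regulators were examined from lists. Of 8 kinases that phosphorylate SR proteins (Srpk1, Srpk2, Srpk3, Clk1, Clk2, Clk3, Clk4 and Dyrk1a), 2 were called higher on average and none lower (25%, against 14.5% of all genes tested). Clk1, on chromosome 1 from 58410189 to 58424066, measured 137, 146, 148 and 156 CPM in home cage water and 158, 169.6, 179 and 187 CPM in learning water mice. Under caffeine it measured 125, 135, 142 and 156 CPM in the home cage and 154, 168, 180.3 and 197 CPM after learning. The water groups did not overlap, the caffeine groups overlapped, and 7 of 8 learning mice exceeded every home cage mouse. Clk1 was higher by 0.28 ± 0.056 (SE) (adjusted p = 0.00604, edgeR), and Clk4 by 0.17 ± 0.061 (SE) (adjusted p = 0.086). The call on Clk4 was kept in 8 of 16 fits that left out 1 mouse and was lost with the length and GC correction (0.12, adjusted p = 0.24). The SRPK genes, Clk2, Clk3 and Dyrk1a were not called.

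Of 41 other splicing regulators, 38 were tested, and 4 were called higher and none lower (10.5%, against 14.5% of all genes). Tra2a, an SR-like activator of exon inclusion, measured 86.6, 110.4, 114 and 118 CPM in home cage water and 115, 123, 129 and 129.9 CPM in learning water mice, with overlap. In caffeine mice it measured 99.0, 102, 108 and 108 CPM in the home cage and 123, 139, 139 and 149 CPM after learning, without overlap. Tra2a was higher by 0.31 ± 0.058 (SE) (adjusted p = 0.00419, edgeR), a larger change than in any of the 46 genes. Sfpq, a nuclear protein needed for long neuronal transcripts, was higher by 0.30 ± 0.066 (SE) (adjusted p = 0.0122), with means of 206 ± 22.6 CPM in home cage water and 240.0 ± 12.8 CPM in learning water mice, and of 191 ± 29.9 CPM in home cage caffeine and 246 ± 11.3 CPM in learning caffeine mice (SD, n = 4). Srrm4, the activator of neuronal microexons, was higher by 0.22 ± 0.066 (SE) (adjusted p = 0.0457), and Rbm10 by 0.15 ± 0.047 (SE) (adjusted p = 0.0592). All 4 calls were kept in all 16 fits that left out 1 mouse and after the length and GC correction.

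Of the 35 core spliceosome genes, 3 were called higher and 3 lower (17.1%, against 14.5% of all genes). Among the 4 of smallest p, Prpf3 of the tri-snRNP was higher by 0.22 ± 0.056 (SE) (adjusted p = 0.0253), Sf3a1 of the U2 particle by 0.11 ± 0.032 (SE) (adjusted p = 0.0431) and Cdc5l by 0.13 ± 0.044 (SE) (adjusted p = 0.0855), whereas Sf3b5 was lower at -0.18 ± 0.063 (SE) (adjusted p = 0.0901, edgeR). The calls on Cdc5l and Sf3b5 were kept in 5 and 4 of 16 fits that left out 1 mouse, and that on Sf3b5 was lost with the length and GC correction (adjusted p = 0.12). The median over the list was -0.0019, against -0.013 over all genes tested.

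Of 22 RNA-binding proteins of neuronal translation and transport, 20 were tested, and 4 were called higher and 1 lower (25%, against 14.5% of all genes). Cpeb1, which controls dendritic translation, was higher by 0.18 ± 0.039 (SE) (adjusted p = 0.00964), Fxr1, a paralogue of FMRP, by 0.20 ± 0.051 (SE) (adjusted p = 0.0262), G3bp1 by 0.10 ± 0.033 (SE) (adjusted p = 0.072) and its partner Caprin1 by 0.15 ± 0.051 (SE) (adjusted p = 0.0747, edgeR). The calls on G3bp1 and Caprin1 were each kept in 9 of 16 fits that left out 1 mouse and were lost with the length and GC correction (adjusted p = 0.21 and 0.10).

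The cold-inducible RNA-binding proteins moved in opposite directions. Cirbp, on chromosome 10 from 80165985 to 80172786, measured 70.1, 91.8, 94.1 and 104 CPM in home cage water and 60.4, 64.7, 66.1 and 68.0 CPM in learning water mice. With caffeine it measured 74.7, 80.5, 82.2 and 110.0 CPM in the home cage and 54.9, 60.9, 66.0 and 67.8 CPM after learning. All 8 learning mice were below all 8 home cage mice. Cirbp was lower, at -0.48 ± 0.083 (SE) on average, -0.48 ± 0.12 (SE) under water and -0.48 ± 0.12 (SE) under caffeine (adjusted p = 0.00242, 0.0901 and 0.0402, edgeR). Rbm3, the other member of the pair, was higher by 0.17 ± 0.057 (SE) on average (adjusted p = 0.0722), with 31.0, 32.0, 32.1 and 34.0 CPM in learning water against 27.9, 28.2, 29.5 and 31.3 CPM in home cage water mice. The call on Rbm3 was kept in 12 of 16 fits that left out 1 mouse and was lost with the length and GC correction (0.15, adjusted p = 0.15). Only the learning mice had been in the maze water, and its part in the changes of Cirbp and Rbm3 was not tested.

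**Figure D5:**
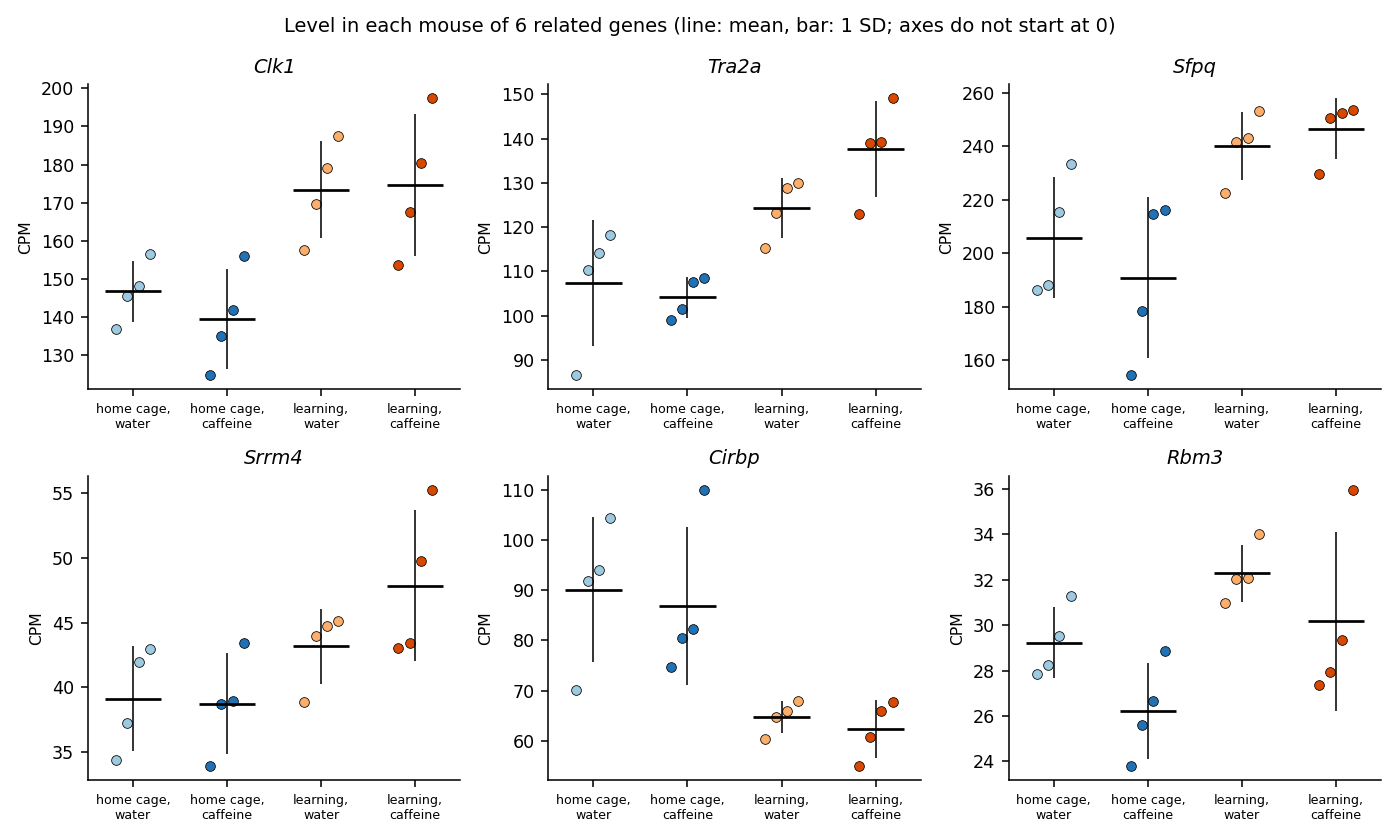
CPM in each mouse for 6 related genes; each point is 1 mouse, lines are group means and bars 1 SD (n = 4), and the axes do not start at 0. Clk1, Tra2a, Sfpq, Srrm4 and Rbm3 lie higher and Cirbp lower in the learning groups, and all 8 learning values of Cirbp are below all 8 home cage values.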

How the data were processed

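RNA from the dorsal hippocampus of 16 mice (4 per group) was sequenced as stranded, poly(A)-selected, single-end libraries. The authors used STAR and Bowtie 2 on the mm10 genome, kept reads with a unique alignment, counted these per gene with HTSeq-count 0.6.1p1 in union mode on Ensembl genes and deposited raw counts without normalization. There are no molecular identifiers and no pooled replicates. Mice are the replicates. No 2 mice of a group had the same values: chi-square per degree of freedom was 5.65 to 33.2 over 24 pairs.

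Counts were fitted in R 4.3.3 with edgeR 4.0.16 (TMM, filterByExpr, 1 mean per group, quasi-likelihood test, Benjamini-Hochberg adjustment over 17830 genes, called under 0.1), the threshold taken from the study. CPM uses the TMM-scaled total. Symbols, positions and exon lengths are from GENCODE M21 (GRCm38), which matched 35247 of 35328 genes. Alternatives were DESeq2 1.42.0 size factors or Wald test, 2 count filters, a threshold of 0.05, robust empirical Bayes, a length and GC correction, thinning to the lowest total, the 8 libraries of a comparison, and each mouse left out. The test was also run on simulated counts with known changes. These were larger than the average learning responses of the called members, so the simulation does not show how changes of that size are recovered.

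Named were members called in any comparison but the difference, the neuronal members, the 3 of smallest p where none was called and, from each list, at most 4 called genes. Members named for their level, spread, shared sequence or response under a correction, and Elavl1, were picked after their values were seen. Members and lists were chosen with earlier results of these data known.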

Additional observations from a re-analysis of the deposited data

Results flagged for a closer look

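In 4 of the 96 groups of 4 mice examined for the 24 named members, 1 mouse stood apart from the other 3, the gap to its nearest neighbour, as a share of the group's range, being above Dixon's 95% critical value for 4 samples. Chance gives about 1 in 20 such groups. Rbfox2 measured 254.3 CPM in home cage caffeine mouse 17, with the other 3 between 286 and 290.3 CPM. Hnrnpd measured 184 CPM in home cage water mouse 11, with the others between 171 and 173 CPM. Elavl4 measured 60.7 CPM in learning caffeine mouse 22, with the others between 65.8 and 66.5 CPM. Hnrnpll measured 78.9 CPM in learning water mouse 24, with the others between 86.5 and 87.9 CPM.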

How the results depend on the processing

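No paired analysis was possible because the groups share no animal numbers. No member was called in learning against home cage under water, in any caffeine comparison or in the difference between the learning responses under any alternative run. The count of members called in the average learning response was 8. It was 7 to 10 under the alternatives that kept all mice and the threshold of 0.1, 5 at an adjusted p under 0.05, and 5 to 9 when 1 mouse was left out (5 without home cage water mouse 6, learning water mouse 36 or learning caffeine mouse 30). The share of all genes called on average moved as well, from 14.5% to 12.2% with the length and GC correction. Without home cage caffeine mouse 17 it was 10.6%. Under caffeine the count was 4. It was 1 at an adjusted p under 0.05, 1 with the 8 libraries of the comparison only, 6 with DESeq2's Wald test, and 1 to 6 when 1 mouse was left out (1 without home cage caffeine mouse 17, and 2 without home cage caffeine mouse 2, learning caffeine mouse 22 or learning caffeine mouse 30). The share of all genes called under caffeine was 5.28%, and 5.12% with the length and GC correction. It was 3.58% with the 8 libraries of the comparison only and 2.25% without home cage caffeine mouse 17. For the other alternatives the share over all genes is not given here, so their counts of members cannot be set against it. None of the log2 fold changes recomputed for named members turned its direction under any alternative. The median over the 46 members for caffeine in the home cage was -0.019, and 0.015 with the length and GC correction. For learning under water it was -0.0014, and 0.0028 with DESeq2's size factors. The length and GC correction, computed from transcript annotation, ended the calls on Srsf3, Rbfox2, Hnrnph1 and Hnrnpa0 on average; the cause was not tested. Median standard errors were 0.063 in a comparison of 2 groups and 0.044 in the averages. The smallest change that 4 mice per group could show is larger than a standard error. Among the members called, the smallest was 0.12 ± 0.037 (SE) on average (Rbfox2) and 0.20 ± 0.054 (SE) under caffeine (Srsf3).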

Other observations

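Among the members with high levels, Hnrnpu, a chromatin-associated hnRNP protein, had the highest mean in CPM, at 615 CPM over the 16 mice, followed by Hnrnpa2b1 at 589.5 and Celf2 at 554 CPM, without correction for length. Summed over each family, the 20 Hnrnp genes took 3422 to 3882 CPM, the 6 Celf genes up to 1852 CPM (mean 1746), the 11 Srsf genes 1247 to 1457 CPM, the 3 Rbfox genes 932 to 1172 CPM, the 4 Elavl genes 456 to 537 CPM and the 2 Nova genes 128 to 152 CPM in the 16 mice. Elavl1 and Hnrnpab were the least variable, with within-group coefficients of variation of 3.19% and 3.51%.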
